A study of Mus musculus with 2 samples.

Results

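The genes of G2 and mitosis were described in mouse prostate luminal cells sorted as positive or negative for a histone 2B-GFP label. The members were 35 genes chosen by their known function, with earlier results of these data known. All 35 were found by symbol among the 18724 rows of the expression table. The label-retaining group was 1 library of luminal GFP+ cells and the non-retaining group 1 library of luminal GFP- cells, both freshly sorted from prostates of mice aged 18 weeks. Both groups were normal tissue, and the sources used here do not state the genotype, the promoter that drives the label, the sort markers or the number of mice pooled. A histone label is diluted at each division, so cells that divide rarely keep it longest. The comparison asks how GFP+ cells differ from GFP- cells. These data do not show whether each GFP- cell once carried the label. The libraries held 50689229 reads of label-retaining and 48334265 reads of non-retaining cells. Since each group is a single library, replicate error is unknown and the groups were not tested against each other, and every interval below covers counting error only.

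Cells that have copied their DNA pass through G2 and enter mitosis when cyclin-dependent kinase 1, joined to A- and B-type cyclins, becomes active. Aurora and polo kinases, kinesin motors and kinetochore proteins then build the spindle, and the anaphase-promoting complex (APC/C), a ubiquitin ligase, ends mitosis by marking cyclins and securin for destruction. Most of these genes are transcribed in a wave late in the cycle. In resting cells the DREAM complex represses them, and in cycling cells B-Myb and FoxM1 activate them through promoter elements called CHR. The normal adult prostate epithelium divides slowly.

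The G2 and mitosis genes were nearly balanced between the libraries, around a few members that were far apart. Of the 34 members that passed a filter of at least 10 normalised counts on average, 2 were called higher in label-retaining cells (Anln and Ccnb1), 5 lower (Kif23, Plk1, Prc1, Incenp and Nusap1) and 27 neither. A gene was called when the libraries differed by 2-fold or more, a log2 ratio (label-retaining over non-retaining) from 1 upward or from -1 downward, with an exact 95% counting interval that left out equality. Over all 17183 measured genes the same rule called 14.5% higher and 19.4% lower, beside 5.88% and 14.7% of the members. The shares of the members rest on few genes, and whether they differ from the background was not tested. Among the 8507 measured genes with mean counts inside the range of the members, 15.5% were called higher and 24.1% lower. The median log2 ratio of the measured members was -0.09, beside -0.0052 for all measured genes, and single members ran between -1.84 (Kif23) and 2.58 (Anln).

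The calls and the member median depended on the scaling, while the member median relative to all genes moved little. With libraries set to equal amounts of the luminal keratins Krt8 and Krt18, which moves the median of all measured genes by -0.80, 1 member was higher and 14 were lower, with a member median of -0.87, against 5.23% higher and 41.3% lower among all genes. The member median minus the median of all genes was -0.09 under the deposited scaling, -0.08 with libraries scaled to equal totals, -0.09 with median-of-ratios factors and -0.07 with the keratin scaling.

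The transcripts were scarce in both libraries. Of the 35 members, 21 had fewer than 100 reads in each library, and Cdc25c, with 14 label-retaining and 6 non-retaining reads, was the member that missed the filter. Together the members held 4021 reads, or 79.3 reads per 1000000 reads of the table (RPM; 95% Poisson interval 76.9 to 81.8), in the label-retaining library, and 4915 reads, or 102 RPM (98.9 to 105), in the non-retaining library. A single gene, Anln, gave 22.2% of the members' reads in label-retaining and 3.34% in non-retaining cells. Without it the sums were 61.7 and 98.3 RPM in label-retaining and non-retaining cells. These sums depend on the library total: with the 10 most abundant genes left out of the total, those of all members were 109 and 116 RPM. Under the deposited scaling the log2 ratio of the summed reads was -0.16 for all members and -0.47 without Anln. Per length, the median level of the measured members was 0.304 reads per kilobase of exon and per 1000000 reads (RPKM) in label-retaining and 0.375 RPKM in non-retaining cells, against 2.102 and 2.62 RPKM for all measured genes. Each of the 34 measured members lay below the median level of measured genes in both libraries. In bulk RNA, fewer cells in G2 or mitosis cannot be told apart from less of these RNAs per cell.

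**Figure D1:**
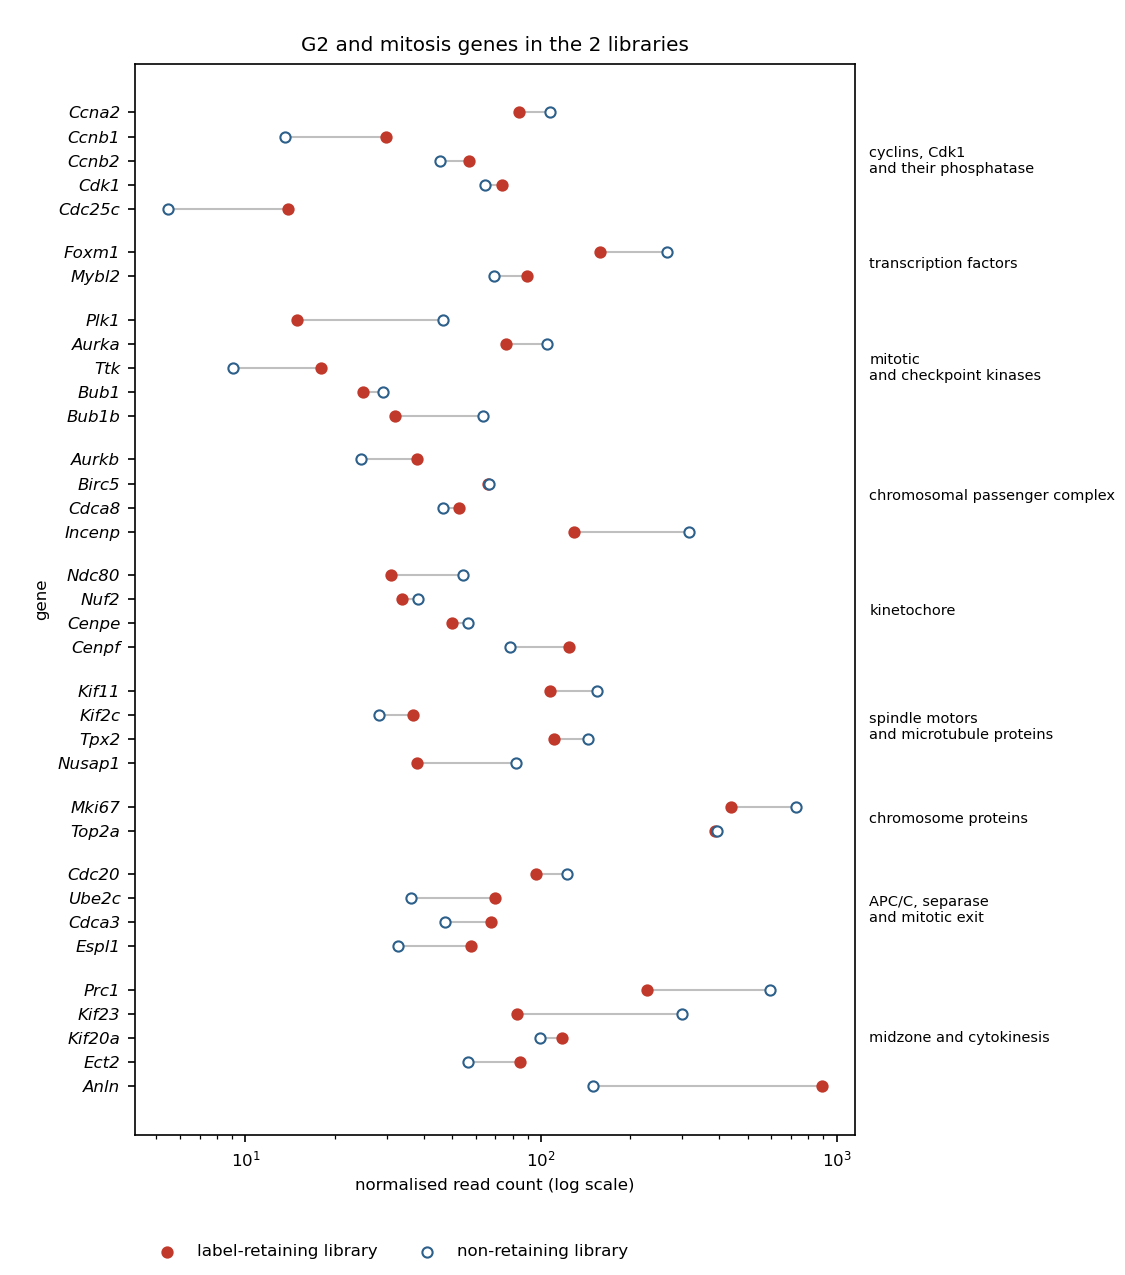
Normalised read count (log axis) of each of the 35 G2 and mitosis genes in the label-retaining library (filled points) and the non-retaining library (open points), grouped by role, 1 library each. Anln is the highest label-retaining value and Mki67 the highest non-retaining value, and most members lie below 100 normalised counts.

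Most members carry the same promoter elements, although their ratios between the libraries ranged widely. The search covered RefSeq promoters (GRCm38.p6, from 250 bases before to 50 after each annotated start) for the CHR letters TTTGAA or TTCGAA and for the NF-Y box CCAAT, each on both strands. Promoters were matched by symbol for 28 of the 35 members, with 30 start sites. A CHR was found in 80.0% of these 30 promoters and in 19.2% of all 32851 promoters, and a CCAAT box in 76.7% and 37.4%. Both stood in 70.0% of member promoters and in 7.52% of all promoters. A match says only that these letters are present, and other forms of the CHR were not searched. Of the 28 members, 22 had a CHR in at least 1 promoter, and their log2 ratios ran between -1.84 and 2.58. The 6 members without these letters, Birc5, Ccnb1, Cenpe, Mybl2, Nuf2 and Nusap1, ran between -1.10 and 1.11.

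The promoter sequences below are shown because they belong to called members on both sides and to the cyclin, kinase and marker genes that were not called. Each runs 5′ to 3′ from 150 bases before to 30 after the annotated start, in lower case, with CHR and CCAAT letters on either strand in capitals. Matches to the elements did not overlap one another in these promoters. The windows on GRCm38.p6 are Kif23 (chr9:61946770-61946949, minus strand), Prc1 (chr7:80294301-80294480, plus strand), Plk1 (chr7:122159285-122159464, plus strand), Anln (chr9:22389177-22389356, minus strand), Ccnb1 (chr13:100786457-100786636, minus strand), Ccnb2 (chr9:70421525-70421704, minus strand), Cdk1 (chr10:69352883-69353062, minus strand) and Mki67 (chr7:135716350-135716529, minus strand).
Kif23: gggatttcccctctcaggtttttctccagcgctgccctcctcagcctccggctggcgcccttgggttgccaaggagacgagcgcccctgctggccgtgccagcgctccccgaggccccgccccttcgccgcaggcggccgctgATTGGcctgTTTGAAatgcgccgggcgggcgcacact
Prc1: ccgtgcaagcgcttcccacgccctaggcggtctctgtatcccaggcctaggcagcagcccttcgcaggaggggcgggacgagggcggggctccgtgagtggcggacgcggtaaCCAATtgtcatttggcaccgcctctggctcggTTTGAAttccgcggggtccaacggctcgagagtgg
Plk1: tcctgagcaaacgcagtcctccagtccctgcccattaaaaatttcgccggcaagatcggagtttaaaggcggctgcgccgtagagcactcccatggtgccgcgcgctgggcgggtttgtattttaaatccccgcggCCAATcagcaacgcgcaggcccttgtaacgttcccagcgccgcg
Anln: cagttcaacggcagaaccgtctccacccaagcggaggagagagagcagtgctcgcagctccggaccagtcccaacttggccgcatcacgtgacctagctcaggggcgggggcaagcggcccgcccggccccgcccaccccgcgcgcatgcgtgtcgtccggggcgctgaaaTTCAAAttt
Ccnb1: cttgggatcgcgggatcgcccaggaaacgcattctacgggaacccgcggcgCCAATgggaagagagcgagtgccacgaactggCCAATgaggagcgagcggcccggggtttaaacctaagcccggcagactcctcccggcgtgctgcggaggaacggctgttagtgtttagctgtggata
Ccnb2: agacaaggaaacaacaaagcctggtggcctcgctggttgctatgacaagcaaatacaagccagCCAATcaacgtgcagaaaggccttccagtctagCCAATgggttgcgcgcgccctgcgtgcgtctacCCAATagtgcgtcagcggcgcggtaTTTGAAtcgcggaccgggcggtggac
Cdk1: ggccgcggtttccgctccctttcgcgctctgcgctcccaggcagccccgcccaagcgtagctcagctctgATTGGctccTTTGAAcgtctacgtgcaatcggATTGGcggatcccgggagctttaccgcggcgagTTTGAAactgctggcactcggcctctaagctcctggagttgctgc
Mki67: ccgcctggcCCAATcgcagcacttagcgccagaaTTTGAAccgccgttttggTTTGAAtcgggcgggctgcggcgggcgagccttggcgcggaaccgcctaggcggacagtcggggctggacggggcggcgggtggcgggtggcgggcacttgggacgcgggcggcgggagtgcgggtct
Kif23, Prc1, Ccnb2 and Cdk1 have both elements near the start, and Mki67 has 2 CHR matches farther upstream, of which the first begins at base -116. The CHR match of Plk1 begins at base 31 after the start, beyond the printed stretch. Anln has CHR letters and no CCAAT box, and Ccnb1 the reverse. Higher and lower members were thus found with and without the CHR letters searched, which does not show that a promoter lacks a CHR of another form.

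**Figure D2:**
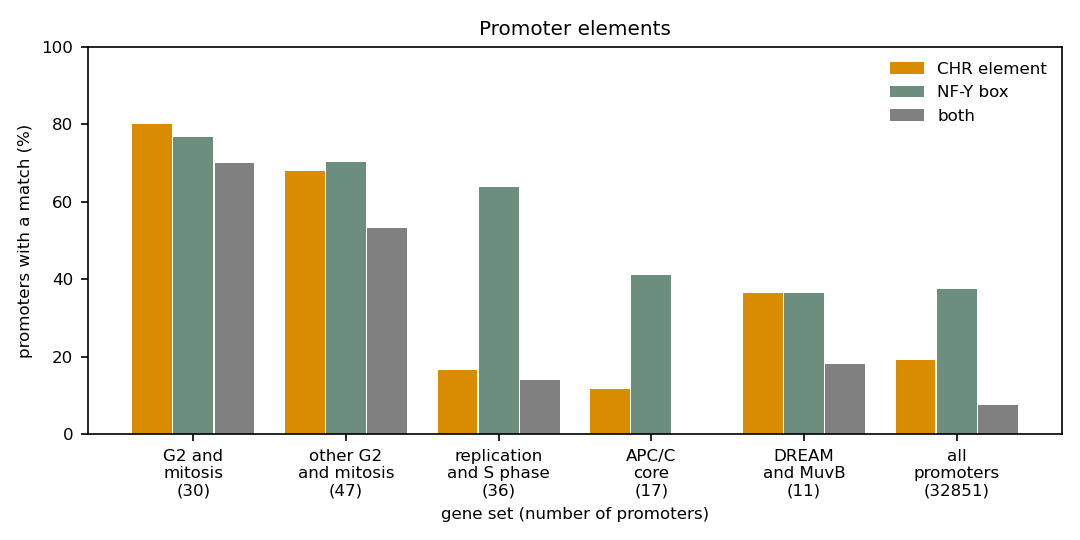
Share of promoters (percent, vertical axis) with a CHR element (the letters TTTGAA or TTCGAA), with an NF-Y box (the CCAAT letters) or with both, for the G2 and mitosis genes, 4 related gene sets and all promoters. The G2 and mitosis genes stand at 80.0% for the CHR, against 19.2% of all promoters and 16.7% of the promoters of replication and S-phase genes.

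Of Cdk1 and the cyclins, which start mitosis, Ccnb1 was called higher and the others were not called. Cdk1, the kinase itself, had 74 reads in label-retaining and 71 in non-retaining cells, a log2 ratio of 0.19 (interval -0.30 to 0.68). Ccna2, which encodes the cyclin A of S phase and G2, had 84 label-retaining and 118 non-retaining reads (-0.35, -0.78 to 0.06), and Ccnb2, a B-type cyclin, 57 and 50 (0.32, -0.25 to 0.90). The intervals of these 3 genes held equality. Ccnb1 (ENSMUSG00000041431.15, chromosome 13, 100778650 to 100786570, minus strand, GRCm38), the main mitotic cyclin, had 30 reads in label-retaining and 15 in non-retaining cells, 2.15-fold higher (log2 ratio 1.11, interval 0.19 to 2.13). That call rests on few reads: it is lost with a pseudocount of 5, with libraries scaled to equal totals and with the keratin scaling. GENCODE also lists a processed pseudogene of each B-type cyclin gene, so reads that match both could have been dropped or split. Cdc25c, the phosphatase that activates Cdk1, had a log2 ratio of 1.28 from its 14 and 6 reads, with an interval (-0.11 to 3.02) that held equality.

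The transcription factors of the late wave went different ways. Foxm1, which encodes the forkhead factor FoxM1, had 159 label-retaining and 292 non-retaining reads, a log2 ratio of -0.74 (interval -1.03 to -0.46) and thus lower by less than 2-fold. Mybl2, which encodes B-Myb, had 90 and 76 reads (0.38, -0.08 to 0.84), and its interval held equality. The intervals of the factors did not overlap each other.

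Among the mitotic and checkpoint kinases, Plk1 was the member called. Plk1 (ENSMUSG00000030867.6, chromosome 7, 122159439 to 122169873, plus strand), the polo kinase of mitotic entry and spindle assembly, had 15 reads in label-retaining and 51 in non-retaining cells and was 3.03-fold lower (log2 ratio -1.60, interval -2.57 to -0.78). Bub1b, of the spindle checkpoint, had 32 and 70 reads (-0.98, -1.65 to -0.37), just short of the 2-fold rule. Aurka, the aurora kinase of the spindle poles, had 76 label-retaining and 115 non-retaining reads (-0.46, -0.90 to -0.03). The intervals of these 3 kinases lay below equality, and those of the others held it. Bub1, a checkpoint kinase at the kinetochore, had 25 and 32 reads (-0.22, -1.04 to 0.58), and Ttk, the kinase that starts the checkpoint, 18 and 10 (0.94, -0.21 to 2.26).

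The chromosomal passenger complex, which corrects faulty attachments and later guides cytokinesis, split by subunit. Its scaffold gene Incenp (ENSMUSG00000024660.8, chromosome 19, 9872296 to 9899551, minus strand) had 129 reads in label-retaining and 348 in non-retaining cells and was 2.45-fold lower (log2 ratio -1.29, interval -1.60 to -1.003). The genes of its partners had intervals that held equality. Aurkb, the kinase of the complex, had 38 and 27 reads (0.62, -0.12 to 1.39), Birc5, which encodes survivin, 66 and 73 (-0.01, -0.51 to 0.49), and Cdca8, which encodes borealin, 53 and 51 (0.19, -0.39 to 0.77). The interval of Incenp lay wholly below those of the other 3 subunits.

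Kinetochore genes were not called in either direction, beside 14.5% of all measured genes called higher and 19.4% lower. Ndc80, of the complex that grips microtubules, had 31 label-retaining and 60 non-retaining reads (-0.81, -1.49 to -0.17), and its partner Nuf2 34 and 42 (-0.17, -0.87 to 0.52). Cenpe, a kinetochore motor, had 50 and 62 reads (-0.18, -0.74 to 0.38). Cenpf, a large protein that marks G2 cells, leaned the other way with 124 and 86 reads (0.66, 0.25 to 1.08). The remaining subunits of the NDC80 complex, named here after their values were seen, had intervals that held equality, with a log2 ratio of 0.15 (-0.32 to 0.62) for Spc25 and 0.63 (-0.0077 to 1.29) for Spc24.

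Among spindle genes, Nusap1 was called lower. Nusap1 (ENSMUSG00000027306.14, chromosome 2, 119618298 to 119651244, plus strand), which bundles microtubules at the chromosomes, had 38 reads in label-retaining and 90 in non-retaining cells and was 2.14-fold lower (log2 ratio -1.10, interval -1.70 to -0.55). Kif11, the motor that pushes the spindle poles apart, had 107 and 170 reads (-0.53, -0.90 to -0.18), and Tpx2, which activates aurora A, 111 and 158 (-0.37, -0.74 to -0.02). Both were lower by less than 2-fold. Kif2c, a kinesin that shortens microtubules, had 37 label-retaining and 31 non-retaining reads, with an interval (-0.34 to 1.13) that held equality.

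The proliferation marker Mki67 and the topoisomerase gene Top2a, which followed Anln in reads in label-retaining cells, differed in their ratios. Mki67, whose protein coats mitotic chromosomes, had 439 and 800 reads (interval -0.90 to -0.56). Top2a, which untangles sister DNA, had 389 label-retaining and 431 non-retaining reads, a log2 ratio of -0.01 (interval -0.22 to 0.19). Per length they stood at 0.861 and 0.851 RPKM in label-retaining cells, and at 1.65 and 0.989 RPKM in non-retaining cells. The interval of the marker lay below equality and did not overlap that of the topoisomerase, which held equality.

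Of the genes of the APC/C and of mitotic exit, 3 of 4 had a positive ratio and 0 were called. Of all 17183 measured genes, 8551 had a positive ratio, 14.5% were called higher and 19.4% lower. Ube2c, which encodes the ubiquitin-conjugating enzyme of the APC/C, had 70 label-retaining and 40 non-retaining reads (0.93, 0.36 to 1.54). Espl1, which encodes separase, the protease that parts sister chromatids, had 58 and 36 (0.81, 0.20 to 1.46). The intervals of both lay above equality, short of 2-fold. Cdc20, the mitotic activator of the APC/C, had 96 and 134 reads (-0.35, -0.74 to 0.04) and Cdca3, which promotes mitotic entry, 68 and 52 (0.52, -0.02 to 1.07). With the keratin scaling Cdc20 was called lower and no gene of this role higher, against 41.3% lower and 5.23% higher among all genes.

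The genes of the spindle midzone and cytokinesis held the extremes on both sides. Anln (ENSMUSG00000036777.7, chromosome 9, 22332012 to 22389188, minus strand) encodes anillin, which binds actin, myosin and septins in the contractile ring. It had 894 reads in label-retaining and 164 in non-retaining cells and was 5.96-fold higher (log2 ratio 2.58, interval 2.34 to 2.83), at percentile 98.01 of the ratios of all measured genes. It was called higher under each of the scalings, filters and pseudocounts tried. Kif23 (ENSMUSG00000032254.9, chromosome 9, 61915905 to 61946774, minus strand), a motor of the centralspindlin complex, had 83 label-retaining and 328 non-retaining reads and was 3.59-fold lower (-1.84, -2.21 to -1.50), at percentile 10.8. Prc1 (ENSMUSG00000038943.15, chromosome 7, 80294450 to 80316259, plus strand), which crosslinks midzone microtubules, had 229 and 655 reads and was 2.60-fold lower (-1.38, -1.61 to -1.16).

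The other cytokinesis genes lay between these. Ect2, the exchange factor that centralspindlin recruits, had 85 label-retaining and 62 non-retaining reads (0.58, 0.10 to 1.08), and Kif20a, a midzone kinesin, 118 and 109 (0.25, -0.14 to 0.64). Racgap1, the partner of Kif23 in centralspindlin and named here after its values were seen, had 116 and 251 reads (-0.98, -1.31 to -0.66) and just missed the 2-fold rule. Kif23, Prc1 and Racgap1 thus lay on the lower side, Ect2 and Anln on the higher side. Prc1 shares 911 exon bases with Rccd1 on the opposite strand, and Kif20a 1271 with Cdc23. The strand setting of the counting is not given in the sources used here, so some of their reads could belong to these neighbours. Ccna2, Cdc25c, Cdca8, Nusap1 and Cdc20 also share exon bases with a gene of the opposite strand that has reads in the table.

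**Figure D3:**
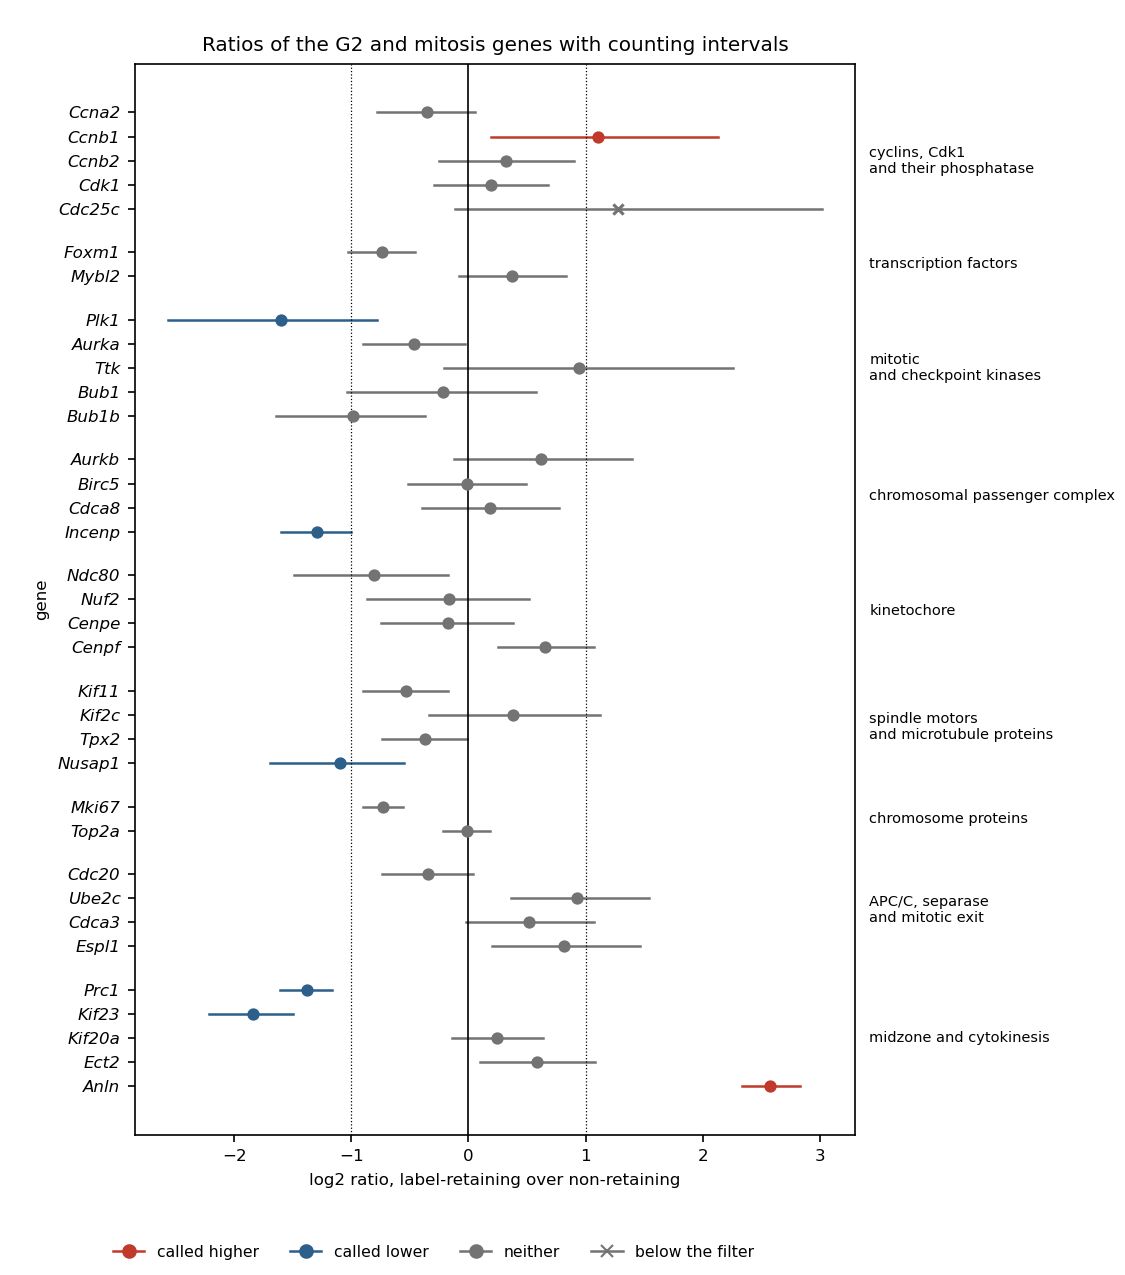
Log2 ratio (label-retaining over non-retaining, horizontal axis) of each member with its exact 95% counting interval (bars), grouped by role, with dotted lines at 2-fold. Anln at 2.58 and Kif23 at -1.84 bound the range, and the intervals of 16 of the 34 measured members hold equality.

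**Figure D4:**
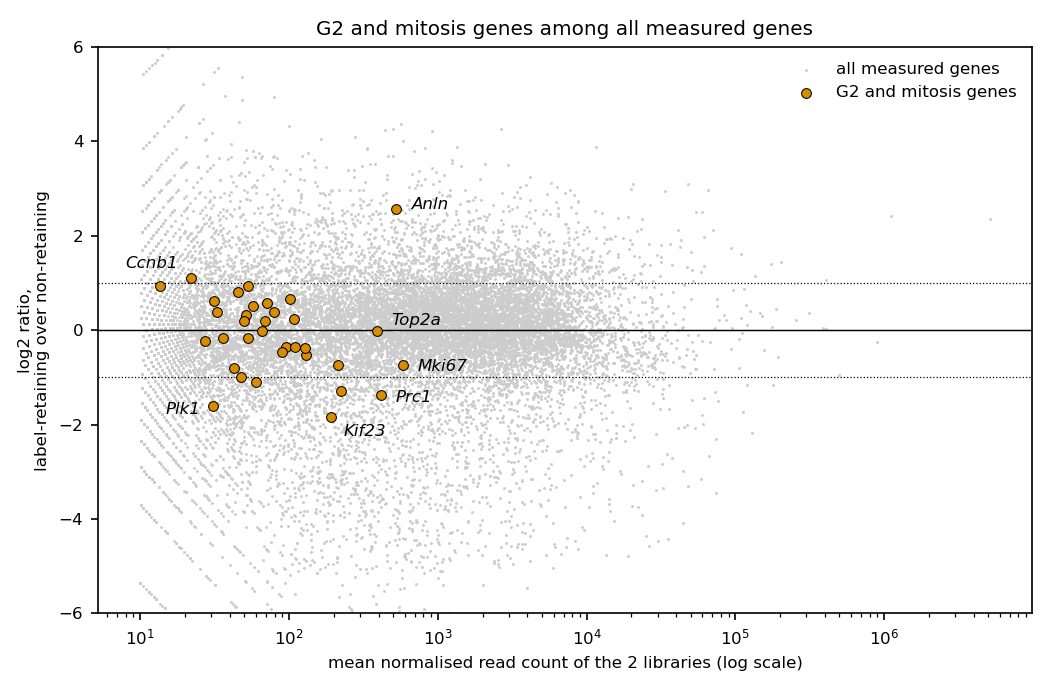
Log2 ratio against the mean normalised read count (log axis) for all measured genes (grey) and the 34 measured G2 and mitosis genes (orange), with dotted lines at 2-fold and 65 genes beyond 6 on either side not drawn. The members have mean counts between 13.5 and 583, a range that holds 8507 of the 17183 measured genes. With intervals that exclude equality, 5 members lie below and 2 above the dotted lines, and Anln stands apart from the rest.

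By counting error alone, 12 of the 34 members were lower, 6 were higher and 16 could not be separated from equality. Over all measured genes 38.5% had an interval below and 38.2% above equality, against 35.3% and 17.6% of the members. The members have few reads and wide intervals, so a difference of less than 2-fold was often not detectable at this depth.

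Other genes of the same phase also lay on both sides of equality. Of 50 further G2 and mitosis genes, 48 were measured, with 5 (10.4%) higher, 13 (27.1%) lower and a median log2 ratio of -0.22. Over all measured genes 14.5% were called higher and 19.4% lower. Among measured genes with mean counts inside the range of the members these shares were 15.5% and 24.1%. Cenpa, the histone that marks centromeres, had 45 label-retaining and 446 non-retaining reads (-3.16, -3.65 to -2.73), and Lbr, a receptor of the nuclear envelope, was at -2.01. On the higher side were Kifc1, a minus-end kinesin, with 314 and 82 reads (2.06, 1.72 to 2.44), and Iqgap3, a scaffold of the cortex, at 1.70. Zwint, of the outer kinetochore, was the most abundant of these genes, with 7400 and 4424 reads (0.88).

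Genes of DNA replication and S phase, given beside the G2 and mitosis genes, lay mostly on the lower side. All 40 were measured, and 15 of them (37.5%) were called lower and 2 (5.0%) higher, against 19.4% and 14.5% of all measured genes. The median log2 ratio of the 40 was -0.74. Of them 33 had a negative ratio, beside 19 of the 34 G2 and mitosis members and 8632 of all 17183 measured genes. Among genes with a mean of at least 100 normalised counts, the medians were -0.88 for 31 replication genes and -0.45 for 12 members. The clamp loader gene Rfc3 (-2.16) was among those farthest below equality by their intervals, and Mcm10 (1.35) and the nuclease gene Exo1 (1.24) were higher. Pcna, the replication clamp, had the most reads and a log2 ratio of -1.15. The difference between the lists could not be tested.

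Genes of the machinery that is present throughout the cycle were mostly not called. The background over all measured genes was 14.5% called higher and 19.4% lower. Of 15 core subunits of the APC/C, 0 were called, with log2 ratios between -0.46 and 0.72, a median of 0.19 and a median level of 6.21 RPKM in label-retaining and 5.79 RPKM in non-retaining cells. Of these subunits 12 had a positive ratio, beside 8551 of all 17183 measured genes. The intervals of 9 (60.0%) lay above equality and those of 2 (13.3%) below, against 38.2% and 38.5% of all measured genes. Anapc5, the subunit gene with the most reads and the lowest ratio, had 4559 label-retaining and 6879 non-retaining reads (-0.46, -0.51 to -0.41). Of 12 genes of the DREAM and MuvB complexes, which repress and then activate the late wave, 0 were higher and 1 was lower. That gene was Lin9, a MuvB subunit, with 78 label-retaining and 262 non-retaining reads (-1.61, -2.00 to -1.24). The pocket protein gene Rbl2, the most abundant of them, was at -0.0013.

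**Figure D5:**
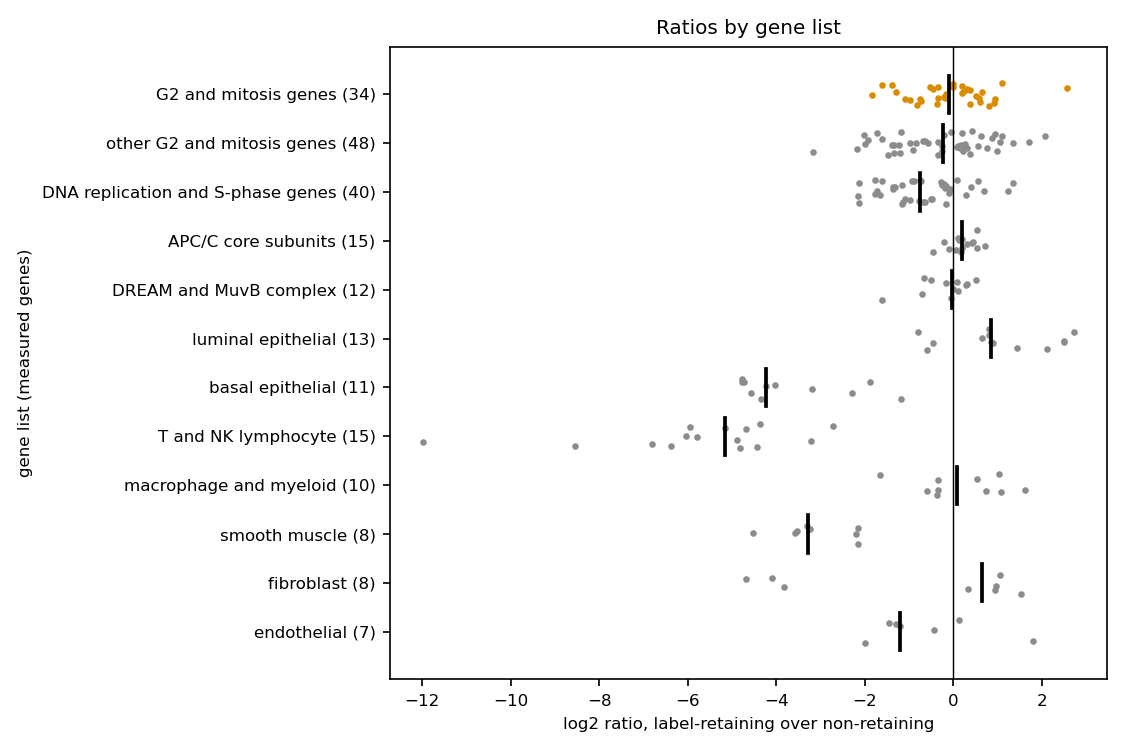
Log2 ratio (label-retaining over non-retaining) of each measured gene in the G2 and mitosis list (orange) and in related and marker lists (grey), with the number of genes in brackets and the median as a black bar. The G2 and mitosis median lies at -0.09, the replication and S-phase median at -0.74, and the basal and lymphocyte medians at -4.23 and -5.15.

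The libraries also differed in markers of other cell types, given here against a background of 14.5% of all measured genes called higher and 19.4% lower. All 11 basal epithelial markers in the table were lower, with log2 ratios between -4.78 and -1.17, and they summed to 757 RPM in label-retaining and 7018 in non-retaining cells. All 15 T and NK lymphocyte markers were lower and summed to 10.7 and 496 RPM, with Gzma at 0 label-retaining and 2234 non-retaining reads. All 8 smooth muscle markers were lower, at 32.8 and 513 RPM. Of 13 luminal markers, 5 were higher and 0 lower, with 18234 and 10945 RPM, so the labelled cell type was present in both. Fibroblast markers (2 higher and 3 lower of 8), endothelial markers (1 and 4 of 7) and myeloid markers (3 and 1 of 10) were mixed in direction. In label-retaining and non-retaining cells, fibroblast markers summed to 437 and 2212 RPM. The sums were 40.5 and 37.0 RPM for endothelial and 35.5 and 38.5 RPM for myeloid markers. The part of these cell types in the ratios of the G2 and mitosis genes was not tested.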

How the data were processed

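Per the labels' protocols, RNA of the sorted cells went into Illumina TruSeq stranded libraries. The authors deposited a normalised signal, that is, read counts divided by 1 size factor per library; the values are whole multiples of a step (largest deviation 2.1e-09 reads), which gave back whole reads and size factors of 1.00 (label-retaining) and 1.10 (non-retaining). Per the submitters' processing notes the build was mm10 and the tools included DESeq 1.16.0, HTSeq 0.6.0, TopHat2 2.0.10, Bowtie2 2.1.0 and CASAVA 1.8.2, with no role stated. Symbols, positions and exon lengths came from GENCODE M21 (GRCm38, also called mm10), which named 18634 of 18724 identifiers, and promoters from RefSeq.

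Log2 ratios of the deposited values used a pseudocount of 0.5. Counting intervals were exact (Clopper-Pearson, 95%) from the reads, and genes with a mean of at least 10 normalised counts were called measured. No test was possible between single libraries. The members, roles and lists were chosen with earlier results of these data known. All members are named; of each other cell-cycle list, up to 2 called genes in each direction and the most abundant, except 1 gene not reported here. The marker lists are given by counts and sums, with Gzma the only gene named with its reads. The arithmetic was tested on simulated reads (Python 3.11.15, numpy 2.4.6, scipy 1.17.1). Alternatives covered scaling, pseudocount, filter, size threshold and the total.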

Additional observations from a re-analysis of the deposited data

How the results depend on the processing

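Against 2 members higher and 5 lower, 1 was higher with equal library totals, with a pseudocount of 5 and with the keratin scaling. The keratin scaling gave 14 members lower, against 5.23% higher and 41.3% lower among all genes. Under that scaling the median log2 ratio was -0.87 for the members and -0.80 for all genes. A mean of at least 100 normalised counts left 12 members, with 1 higher and 3 lower. A 1.5-fold threshold gave 5 higher and 9 lower. Intervals excluding equality alone gave 6 and 12, against 38.2% and 38.5% of all measured genes. Shares of all genes are not given here for the 1.5-fold threshold, the higher filter and the larger pseudocount, so those counts have no background beside them. Summed RPM (label-retaining and non-retaining) were 109 and 116 without the 10 most abundant genes in the total, 61.7 and 98.3 without Anln, and 63.0 and 76.2 without Mki67 and Top2a, the last 2 choices made after seeing the data. Equal totals moved the median of all genes by -0.21 and called 7 of the 34 members lower, against 11.1% higher and 23.3% lower among all genes. Median-of-ratios factors and the removal of the filter changed no member's call. No called member changed sign under the scalings, filters and pseudocounts tried. No paired analysis was possible because each group has 1 library.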
